A study of Homo sapiens with 8 samples.

Results

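Plasma membrane amino acid transporters were followed in HepaRG cells, a human hepatic progenitor line that differentiates into hepatocyte-like and cholangiocyte-like cells, after 24 h of exposure to chemicals that stress cells in different ways. The set comprised 10 genes chosen by symbol, SLC7A11, SLC3A2, SLC7A5, SLC43A1, SLC7A1, SLC7A2, SLC1A4, SLC1A5, SLC38A1 and SLC38A2, out of 62703 genes in the count table. All 10 were found once in the table. Each passed the filter on low counts in all 12 comparisons that had at least 2 treated cultures.

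Rotenone, a blocker of the mitochondrial electron transport chain, was given at 0.2 and 0.4 µM. The protein synthesis inhibitor cycloheximide was given at 0.2, 2 and 20 µM, the topoisomerase II inhibitor etoposide at 0.25, 2.5 and 25 µM, and tunicamycin, which blocks N-linked glycosylation, at 0.001, 0.01 and 0.1 µM. Brefeldin A, which stops transport between the endoplasmic reticulum and the Golgi, was given at 0.001, 0.01 and 0.1 µM, and tert-butylhydroquinone (tBHQ), an activator of the antioxidant factor NRF2, at 3, 30 and 300 µM. Troglitazone, a PPARγ agonist, stood at 50 µM in the cell table, whereas the treatment protocol lists 0.001, 0.01 and 0.1 µM, so its dose is uncertain. The cells received 0.1% DMSO as vehicle in every treatment and in the control, and cultures named as medium carry no vehicle in their name. Every culture was terminally differentiated and came from a single cell line in plates coated with collagen. Dissociation took place in a solution with actinomycin D and anisomycin, which block transcription and translation.

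RNA was measured with the Parse Evercode split-pool method in 8 sublibraries, and the sample name of each cell gave its chemical, dose and a run number that no source used here defines. Of 12976 cells, 8406 passed limits of 500 detected genes and 20% mitochondrial UMIs (unique molecular identifiers, one per captured RNA molecule). The 38 cultures with at least 30 such cells fell into 20 conditions. The study describes a single exposure per condition, so the spread between cultures may be technical, and p-values measure only that spread. Kept UMIs per DMSO culture ranged between 3417334 and 33404488. The cells of rotenone cultures were deeper, with a median of 184833 UMIs at 0.2 µM and of 184485 and 45112 at 0.4 µM, against 17080 to 79381 in the 4 DMSO cultures. Hepatocyte markers (ALB, APOB, HNF4A, ARG1, TTR and CYP3A4) were all detected and summed to between 8594 and 21145 CPM (a gene's UMIs scaled to 1000000 UMIs of the culture) in DMSO cultures, against 93.3 to 145 CPM for 5 cholangiocyte markers. The blood and endothelial genes PTPRC, HBB, CD3E, PECAM1 and LYZ summed to at most 11.4 CPM there, with HBB at 0.

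Amino acid transporters of the plasma membrane work as exchangers, facilitators or sodium-coupled pumps. SLC3A2 (CD98 heavy chain) carries several light chains to the surface, among them SLC7A11 (xCT), which takes up cystine in exchange for glutamate and so feeds glutathione synthesis, and SLC7A5 (LAT1), which exchanges large neutral amino acids such as leucine. Shortage of amino acids, misfolded protein and mitochondrial failure converge on kinases that phosphorylate eIF2α and thereby raise translation of ATF4, a factor that binds the amino acid response element in several transporter genes. SLC7A11 is also a known target of NRF2.

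The promoter windows of the set were searched for both elements, since they are the sites at which these factors are known to bind. RefSeq windows of 250 bases before to 50 bases after a gene start (GRCh38.p14) were held for 8 of the 10 genes, in 15 windows. SLC7A11 and SLC7A2 had none. The letters TGATGNAA, on either strand, stood in 5 of the 15 windows, in 5 genes, and in 3.62% of all 35116 windows of the same length. Runs of 23 to 29 bases around them are shown on the strand of the gene, with the matched letters in capitals, because SLC1A4, SLC3A2, SLC7A1 and SLC38A1 are among the genes that move most in the results.
SLC1A4 (chr2:64989382-64989410, + strand, element on the opposite strand, 7 bases before the start): cggctcccgtTTGCATCAtctccagccgg
SLC3A2 (chr11:62881726-62881748, + strand, element on the opposite strand, 37 bases after the start): gcaggactccTTACATCAgctcc
SLC38A1 (chr12:46266502-46266530, - strand, element on the same strand, 4 bases before the start): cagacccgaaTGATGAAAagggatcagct
SLC7A1 (chr13:29595663-29595691, - strand, element on the same strand, 7 bases after the start): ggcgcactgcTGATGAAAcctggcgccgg
SLC1A5 (chr19:46784893-46784921, - strand, element on the same strand, 97 bases before the start): aggaagtggcTGATGCAAgctgtccaggg

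The letters TGACNNNGC of the antioxidant response element stood in 4 of the 15 windows and in 13.3% of all windows. They are shown for SLC3A2 and SLC7A5, which encode the heavy chain and its leucine-carrying partner. The printed matches of the 2 patterns do not overlap, and a match of letters does not show that a factor binds there.
SLC3A2 (chr11:62881652-62881681, + strand, element on the same strand, 37 bases before the start): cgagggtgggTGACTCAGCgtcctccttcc
SLC7A5 (chr16:87869490-87869519, - strand, element on the same strand, 2 bases before the start): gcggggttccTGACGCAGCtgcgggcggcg

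In vehicle-treated cells the set spanned a wide range of levels. Scaled to the length of annotated exons (GENCODE v44), the mean level over the 4 DMSO cultures was highest for SLC38A2 (SNAT2), a sodium-coupled importer of small neutral amino acids, at 66.1 CPM per kb. The cationic amino acid transporter SLC7A2 (CAT2), which brings arginine into liver cells, followed at 27.8 CPM per kb, and SLC38A1 (SNAT1), a sodium-coupled glutamine importer, at 16.5 CPM per kb. SLC43A1 (LAT3), SLC7A11 and SLC3A2 lay close together at 6.63, 6.45 and 6.43 CPM per kb. SLC1A5 (ASCT2), a sodium-dependent glutamine exchanger, had 4.50 CPM per kb and the arginine and lysine transporter SLC7A1 (CAT1) 2.90 CPM per kb. Without scaling by length, the means of SLC43A1, SLC7A11 and SLC3A2 were 23.4, 62.2 and 41.1 CPM. Those of SLC1A5 and SLC7A1 were 15.0 and 22.3 CPM, so the order of these genes depends on the scaling. The serine and alanine exchanger SLC1A4 (ASCT1) and SLC7A5 were lowest at 0.634 and 0.520 CPM per kb, with 225 and 154 UMIs over all 4 DMSO cultures.

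Rotenone at 0.4 µM was compared with DMSO to see how a block of the respiratory chain moves the set. The cystine importer and its heavy chain were raised, and the arginine transporter SLC7A2 and the facilitator SLC43A1 were lowered. Of the 10 genes, 3 rose (SLC7A11, SLC3A2 and SLC1A5) and 2 fell (SLC7A2 and SLC43A1), at an adjusted p of 0.05 in edgeR's quasi-likelihood test. Among all 19831 genes tested, 19.1% rose and 42.2% fell. The median log2 change was 0.46 over the set and -0.56 over all genes tested.

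SLC7A11 had 525 and 568 CPM in the cultures with 0.4 µM rotenone, against 82.4, 67.3, 53.0 and 46.1 CPM in the DMSO cultures. Both treated cultures lay far above every DMSO culture. The fitted log2 fold change was 3.13 (SE 0.24, adjusted p = 1.2e-06), and it kept to between 3.02 and 3.31 when any one culture was left out. Against the DMSO culture of the same run, the log2 difference was 3.31 in run 5 and 3.62 in run 6.

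SLC3A2 had 115 and 236 CPM with 0.4 µM rotenone, against 37.4, 44.5, 45.6 and 36.9 CPM with DMSO. The groups did not overlap, but the treated cultures stood wide apart. Its fitted log2 fold change was 2.09 (SE 0.26, adjusted p = 2.6e-05). Within runs the log2 difference from DMSO was 1.34 in run 5 and 2.67 in run 6.

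SLC1A5 had 19.3 and 38.3 CPM with 0.4 µM rotenone, against 14.6, 17.3, 19.6 and 8.51 CPM with DMSO. Here the groups overlapped, since the culture of run 5 lay below the DMSO culture of its own run. The fitted log2 fold change was 0.91 (SE 0.34, adjusted p = 0.034). It did not stand without the rotenone culture of run 6 (log2 change 0.35, adjusted p = 0.48), nor without the DMSO culture of run 3, 4 or 6 (adjusted p = 0.053, 0.052 and 0.068), nor with all cells kept (0.73, adjusted p = 0.071).

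SLC7A2 had 87.7 and 68.0 CPM with 0.4 µM rotenone, against 203, 274, 204 and 199 CPM with DMSO. Both treated cultures were below all DMSO cultures, and the fitted log2 change was -1.49 (SE 0.23, adjusted p = 1.6e-04). The large neutral amino acid facilitator SLC43A1 had 13.2 and 7.42 CPM, against 18.8, 25.2, 28.9 and 20.5 CPM with DMSO. Again no culture overlapped, and the fitted log2 change was -1.15 (SE 0.30, adjusted p = 0.0056). Its call was lost without the rotenone culture of run 6 (adjusted p = 0.056) and when libraries were scaled by TMM or DESeq2 size factors (adjusted p = 0.062 and 0.060).

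The other 5 genes did not pass the test. SLC7A1 had 33.1 and 28.3 CPM with 0.4 µM rotenone, against 20.3 to 23.3 CPM in the DMSO cultures, and its log2 change was 0.47 (SE 0.21, adjusted p = 0.074). For SLC38A2 the values were 539 and 631 CPM, against 374 to 468 CPM, at 0.44 (SE 0.21, adjusted p = 0.081). Neither gene overlapped between the groups, and the share of all genes without overlap at this dose is not given here. SLC38A1, with 288 and 166 CPM against 139 to 187 CPM, and SLC1A4, with 6.05 and 5.46 CPM against 3.82 to 5.60 CPM, did overlap. The log2 change of SLC38A1 was 0.47 (SE 0.24, adjusted p = 0.11), between 0.015 and 0.81 without any one culture. It passed without the rotenone culture of run 6 (0.81, adjusted p = 0.014) and in a fit over all conditions (0.47, adjusted p = 0.044). SLC7A5 had 2.35 and 2.24 CPM, against 1.25 to 3.43 CPM with DMSO.

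How the libraries were scaled mattered for these genes. TMM factors moved the median log2 change of all genes to -0.10, with 5570 genes higher and 6078 lower in place of 3794 and 8373. Relative to that median, SLC7A1, SLC38A1, SLC38A2 and SLC1A4 then rose as well, at log2 fold changes of 0.92, 0.92, 0.90 and 0.86. SLC7A11, SLC3A2, SLC1A5 and SLC7A2 kept their calls and directions with TMM factors and with DESeq2 size factors. SLC7A5 was at -0.18 by total count and at 0.27 with TMM factors, and passed the test with neither.

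The changes also differed with gene length. The median log2 change was -0.97 over 4539 genes longer than 100 kb, and -0.45 over 11248 genes of 10 to 100 kb, of which 21.2% rose and 39.9% fell. All 10 transporter genes are in the middle class. SLC7A11 spans 78253 bases of chromosome 4 (138164097 to 138242349, - strand, GRCh38), SLC3A2 32877 bases of chromosome 11 (62856004 to 62888880, + strand) and SLC1A4 35389 bases of chromosome 2 (64988477 to 65023865, + strand). An antisense RNA, SLC7A11-AS1, overlaps SLC7A11 and had on average 7.59 CPM at 0.4 µM rotenone, against 1.76 CPM with DMSO. Since the use of strand in counting is not given in the sources used here, reads of the pair cannot be told apart for certain.

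Rotenone at 0.2 µM was present in 1 culture. By the rule for single cultures, a ratio of at least 2 with at least 50 CPM and 50 UMIs in the higher group, SLC7A11, SLC3A2, SLC7A1 and SLC38A1 were past 2-fold higher and none was lower. The background of that rule was 19.0% higher and 17.5% lower among 5542 genes that reached the minimum. Of the set, SLC7A5, SLC43A1, SLC1A4 and SLC1A5 did not reach it, so the rule could not call them. In a fit over all 20 conditions, added after the data were seen, in which the single culture takes its spread from the other conditions, 7 of the 10 genes rose and 0 fell. Among all 24028 genes of that fit 16.2% rose and 25.4% fell, and the median log2 change was 1.24 over the set and -0.24 over all genes. With TMM factors, the same fit called 9 of the 10 at 0.4 µM against DMSO, beside 6701 genes higher and 6699 lower among all 24028.

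The serine and alanine exchanger SLC1A4 had the largest fold change of the 10 genes at this dose. It had 43.4 CPM (4214 UMIs) at 0.2 µM rotenone, against 3.82, 4.10, 4.07 and 5.60 CPM in the DMSO cultures, a ratio of 9.87. Counting error left the log2 ratio of the summed UMIs between 3.19 and 3.59 (exact conditional binomial 95% interval, which covers counting error only). The fitted log2 fold change was 3.32 (SE 0.32, adjusted p = 4.4e-08). LINC02245, which overlaps SLC1A4 on the opposite strand, had 35.4 CPM there, against 14.7 CPM on average with DMSO.

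SLC3A2 stood at 277 CPM and SLC7A11 at 312 CPM with 0.2 µM rotenone, 6.74 and 5.01 times their DMSO means of 41.1 ± 4.6 and 62.2 ± 16.1 CPM (SD, n = 4). Fitted log2 fold changes were 2.75 (SE 0.30) and 2.32 (SE 0.48). The arginine transporter SLC7A1 reached 94.4 CPM, against 23.3, 22.8, 20.3 and 22.8 CPM with DMSO, and SLC38A1 403 CPM, against 155, 179, 139 and 187 CPM. Both were far outside the DMSO range, with log2 fold changes of 2.09 (SE 0.28) and 1.29 (SE 0.24). SLC1A5 had 34.6 CPM and SLC7A5 5.62 CPM, which were above all DMSO cultures but under the 50 CPM minimum, with fitted log2 fold changes of 1.19 (adjusted p = 0.016) and 1.09 (adjusted p = 0.047).

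The other 3 genes did not pass at 0.2 µM. SLC38A2 had 287 CPM, below the lowest DMSO culture at 374 CPM (log2 fold change -0.58, SE 0.29, adjusted p = 0.11), and SLC7A2 had 146 CPM, below the lowest DMSO culture at 199 CPM (-0.59, SE 0.25, adjusted p = 0.063). SLC43A1, at 27.6 CPM, lay within the DMSO range.

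**Figure D1:**
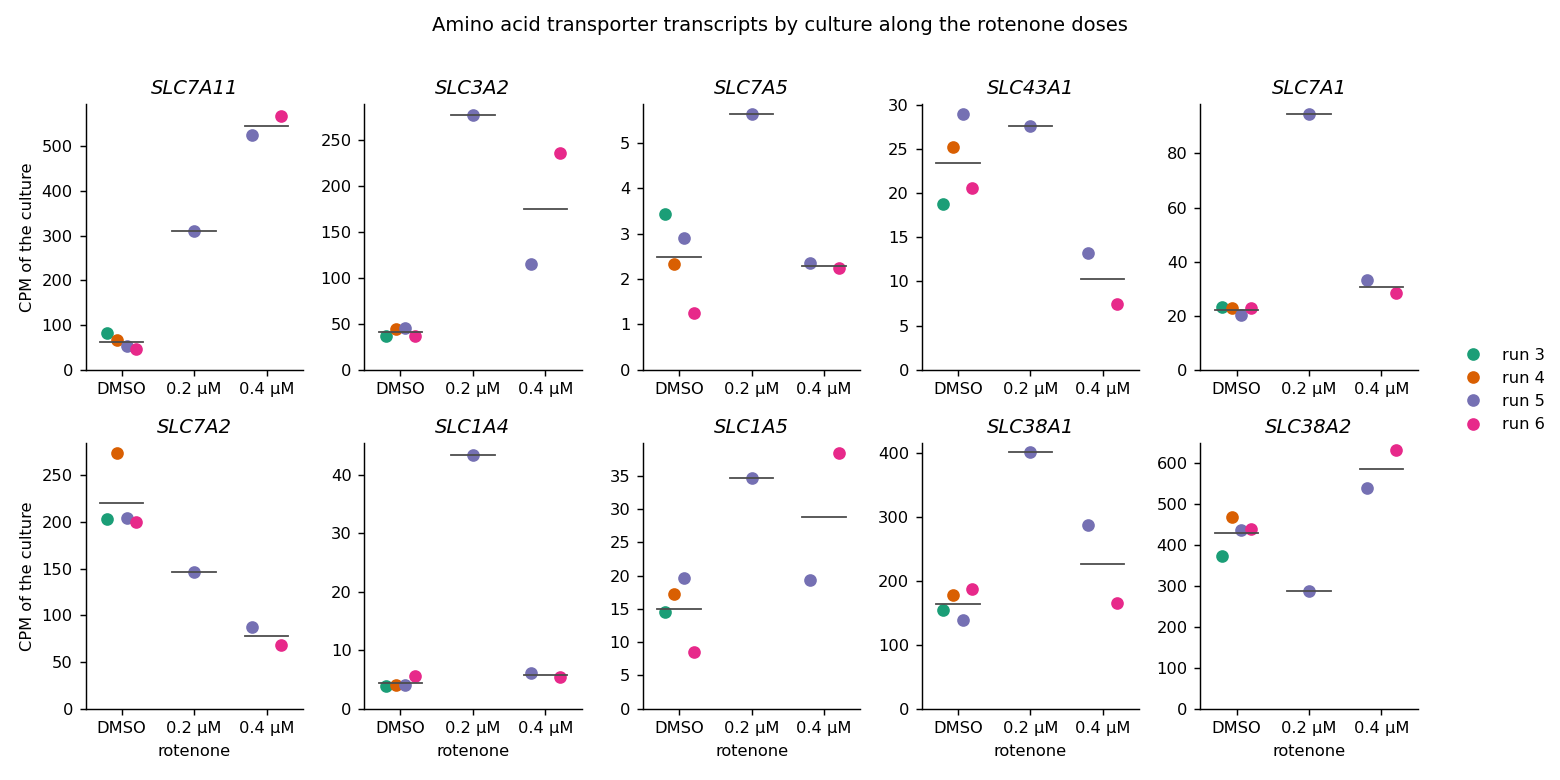
CPM of the 10 transporter genes (vertical axes, linear, from 0) in each culture along the rotenone doses, with DMSO at the low end. Each point is a culture coloured by run, and the bar is the mean. SLC1A4 is at 43.4 CPM in the 0.2 µM culture and at 6.05 and 5.46 CPM at 0.4 µM, while SLC7A11 is highest at 0.4 µM, with 525 and 568 CPM.

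The difference between the rotenone doses was tested in the same fit. At 0.4 µM, 5 of the 10 genes were lower than at 0.2 µM and 1 was higher, while among all genes 20.3% were lower and 8.09% higher. SLC1A4 fell by 2.90 on the log2 scale (SE 0.38, adjusted p = 3.4e-06), SLC7A1 by 1.62 (SE 0.33, adjusted p = 5.5e-04) and SLC43A1 by 1.38 (SE 0.35, adjusted p = 0.0037). SLC7A2 and SLC38A1 fell by 0.91 and 0.82 (adjusted p = 0.0094 and 0.026), although their calls were lost with TMM factors (adjusted p = 0.077 and 0.17). SLC38A2 rose by 1.03 (SE 0.32, adjusted p = 0.016). SLC7A11 differed by 0.81 (SE 0.61, adjusted p = 0.35) and SLC3A2 by -0.66 (SE 0.36, adjusted p = 0.18), neither of which passed. Run 5 holds both doses. In that run alone, SLC1A4 stood at 6.05 CPM at 0.4 µM and 43.4 CPM at 0.2 µM, SLC7A1 at 33.1 and 94.4 CPM, and SLC38A2 at 539 and 287 CPM, in the same directions.

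Single cells showed how these differences were spread. Each cell was thinned to 5000 UMIs so that depth did not set the share of cells with a UMI, and no kept cell was shallower. SLC7A11 was found in 63.9% of 449 cells at 0.2 µM (exact 95% binomial interval 59.3 to 68.4), in 63.0% and 54.5% of the cells of the 0.4 µM cultures and in 16.1% to 25.2% of the cells of the DMSO cultures. SLC1A4 was found in 19.8% of cells at 0.2 µM (16.2 to 23.8), in 2.42% and 4.55% at 0.4 µM and in 0.965% to 2.80% with DMSO. INS and MYH7, markers of pancreatic beta cells and of heart muscle, each had a UMI in 0 of 449 cells at 0.2 µM, 0 of 523 cells at 0.4 µM and 0 of 781 DMSO cells, which allows shares of up to 0.668%, 0.574% and 0.384%.

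The spread over cells also differed between doses. For SLC7A11, the quartiles of the level per cell were 129 and 441 CPM at 0.2 µM and 44.1 and 789 CPM at 0.4 µM, against 0 and 76.8 CPM in DMSO cells. The quartiles lay further apart at 0.4 µM, and the lower quartile was under the lower quartile of 0.2 µM cells in both runs, at 57.4 and 19.7 CPM. These levels per cell were not thinned, and the cells of run 6 and of the DMSO cultures were shallower. In run 5 the median depth was alike, at 184833 UMIs at 0.2 µM and 184485 at 0.4 µM. The quartiles at 0.4 µM in that run were 57.4 and 787 CPM. The part of depth in the other quartiles was not tested. SLC3A2 had quartiles of 220 and 337 CPM at 0.2 µM, and of 68.9 and 151 CPM in run 5 and 152 and 322 CPM in run 6 at 0.4 µM.

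**Figure D2:**
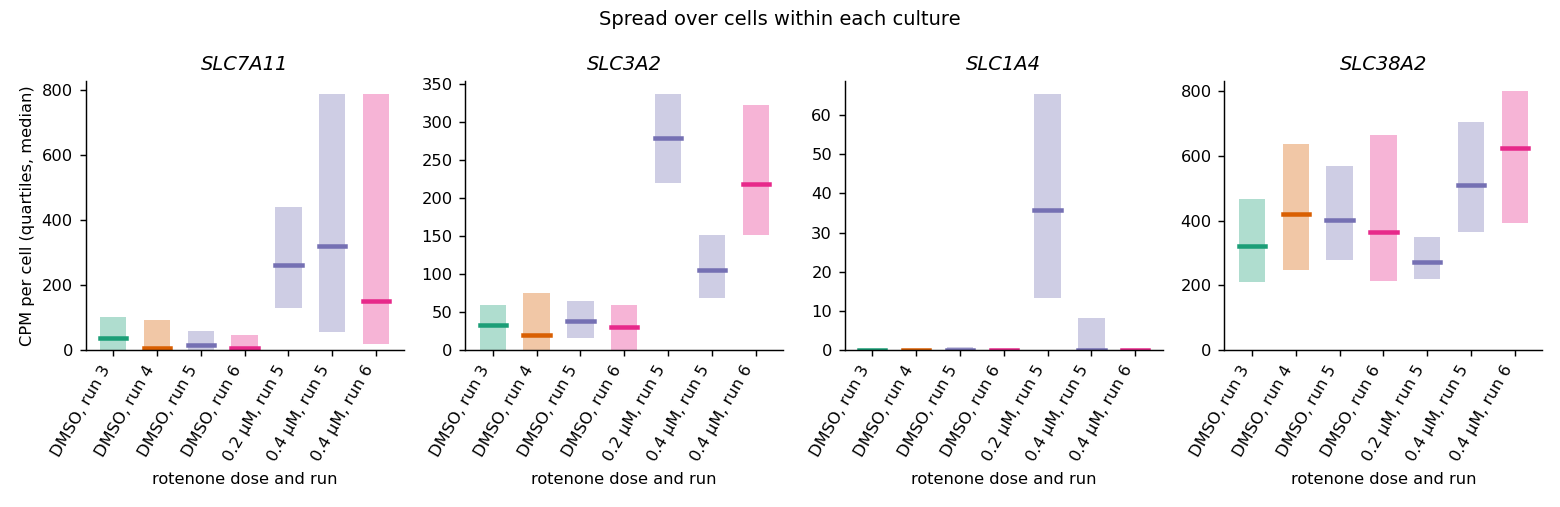
Level per cell (CPM, linear axes from 0) of 4 transporter genes in every DMSO and rotenone culture. Each box spans the lower to the upper quartile over the cells of a culture and the thick line is the median, coloured by run. The levels were not thinned to a common depth. The median of SLC1A4 is 35.6 CPM at 0.2 µM and 0 in all DMSO and 0.4 µM cultures.

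Genes around the set were read from lists. Their counts stand beside shares over all genes of 19.1% higher and 42.2% lower at 0.4 µM rotenone, and of 16.2% higher and 25.4% lower at 0.2 µM in the fit over all conditions. Of 15 tested regulators and targets of the amino acid response, 8 rose and 2 fell at 0.4 µM rotenone, led by the glutathione-degrading enzyme CHAC1 (log2 fold change 3.65), the asparagine synthetase ASNS (3.01) and ATF4 (2.77). At 0.2 µM, in the fit over all conditions, 8 rose and 1 fell, led by CHAC1 (5.14), the pseudokinase TRIB3 (4.88) and ASNS (4.65). Of 9 regulators of transporter genes and of the growth kinase mTORC1, 1 rose and 3 fell at 0.4 µM, which is no more than the shares over all genes at that dose. The lysosomal GTPase RRAGC, which takes part in amino acid sensing, rose by 3.73 there, and NFE2L2, the gene of NRF2, fell by 1.84. At 0.2 µM, in the fit over all conditions, the median log2 change of these 9 genes was 0.13, beside -0.24 over all genes. Among 6 genes of glutathione synthesis and use, GPX4 rose by 1.00 and GCLM fell by 0.60 on the log2 scale at 0.4 µM.

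Other transporters did not share the rise of SLC7A11 and SLC3A2 at 0.4 µM. Of 20 further plasma membrane and lysosomal amino acid transporters that could be tested, 0 rose and 13 fell, with a median log2 change of -1.17, beside -0.56 over all genes. The hepatic SLC38A4 (log2 fold change -2.06), the glutamine transporter SLC38A3 (-1.91) and the lysosomal SLC36A1 (-1.79) fell most. At 0.2 µM, 4 of 22 such genes rose and 6 fell, close to the shares over all genes, with the glycine transporter SLC6A9 at 3.69 and the glutamate transporter SLC1A3 at -2.53. Of 9 mitochondrial carriers of amino acids, 4 fell and 0 rose at 0.4 µM, a share of lower genes close to that over all genes, led by the aspartate and glutamate carrier SLC25A13 (-1.98). Hepatocyte markers fell for 3 of 6 genes at 0.4 µM, beside 42.2% of all genes. They summed to 7427 and 14832 CPM at 0.4 µM and 7946 CPM at 0.2 µM, against 8594 to 21145 CPM with DMSO. Cholangiocyte markers summed to 75.2 and 97.2 CPM at 0.4 µM and 66.9 CPM at 0.2 µM, against 93.3 to 145 CPM with DMSO. The cycling genes MKI67 and TOP2A summed to 305 and 447 CPM at 0.4 µM and 288 CPM at 0.2 µM. Their sums in the DMSO cultures were 48.8 to 531 CPM. The blood and endothelial list summed to 3.67 and 5.60 CPM at 0.4 µM and 3.02 CPM at 0.2 µM, against 5.50 to 11.4 CPM with DMSO. Of that list the endothelial gene PECAM1 fell at 0.4 and 0.2 µM (log2 fold change -1.71 and -2.35), and the leukocyte gene PTPRC rose (2.29 and 2.24), with a UMI in 0 of 449 thinned cells at 0.2 µM, 1.34% of those at 0.4 µM and 0 of 781 with DMSO. The 5 mesenchymal markers summed to 31.3 and 37.0 CPM at 0.4 µM and 47.2 CPM at 0.2 µM, against 91.0 to 193 CPM with DMSO. The part of cell composition in these results was not tested.

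Cycloheximide at 20 µM, which stops translation itself, gave another pattern. Here 3 of the 10 genes rose (SLC7A1, SLC38A1 and SLC3A2) and 1 fell (SLC43A1), while 6.52% of 18706 genes rose and 13.2% fell. The median log2 change was 0.05 over the set and -0.12 over all genes tested.

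SLC7A1 had 45.3 and 54.1 CPM with 20 µM cycloheximide, against 23.3, 22.8, 20.3 and 22.8 CPM with DMSO, and its log2 change was 1.15 (SE 0.21, adjusted p = 0.0031). SLC38A1 had 271 and 414 CPM, against 155, 179, 139 and 187 CPM, and its log2 change was 1.05 (SE 0.22, adjusted p = 0.0060). For SLC3A2 the values were 58.0 and 81.4 CPM, against 37.4, 44.5, 45.6 and 36.9 CPM, at 0.75 (SE 0.22, adjusted p = 0.032). All 3 were above every DMSO culture in both treated cultures, and the share of all genes for which this holds is not given here. SLC43A1 had 8.92 and 12.8 CPM, below the 18.8 to 28.9 CPM of the DMSO cultures, at -1.16 (SE 0.31, adjusted p = 0.021). With the run as a block in edgeR's test, none of these calls stood. The adjusted p was then 0.053 for SLC7A1, 0.054 for SLC38A1, 0.14 for SLC3A2 and 0.11 for SLC43A1, although no source pairs cultures by run.

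The treated cultures differed for other genes. SLC7A11 had 13.7 CPM in run 3 and 54.6 CPM in run 4 with 20 µM cycloheximide, against 82.4 and 67.3 CPM with DMSO in those runs. The fitted log2 change of -0.97 (SE 0.45) did not pass (adjusted p = 0.15), but did without the culture of run 4, which held 37 cells (log2 change -2.18, adjusted p = 0.0036). SLC38A2 was at 337 and 693 CPM, on either side of the DMSO range. Without run 4 the calls of SLC38A1 and SLC3A2 were lost (adjusted p = 0.066 and 0.19), and without run 3 that of SLC43A1 (adjusted p = 0.18). That of SLC3A2 was also lost without the DMSO culture of run 3 or 6 (adjusted p = 0.090 and 0.084). Hepatocyte markers were low in these cultures, at sums of 2236 and 5335 CPM, and 6 of 6 fell. Over all genes, 6.52% rose and 13.2% fell at this dose. The 5 cholangiocyte markers summed to 23.2 and 50.3 CPM, against 93.3 to 145 CPM with DMSO, with KRT19 and SCTR lower and KRT7 higher. Of the mesenchymal markers, which summed to 88.9 and 99.9 CPM, against 91.0 to 193 CPM, COL3A1 fell and PDGFRB rose. The part of these shifts in the transporter results was not tested.

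Along the cycloheximide doses, SLC7A1 averaged 22.3 CPM with DMSO and 32.1, 32.3 and 49.7 CPM at 0.2, 2 and 20 µM. SLC7A11 averaged 62.2 CPM with DMSO and 79.3, 41.1 and 34.2 CPM at these doses. At 0.2 and 2 µM no gene of the set was called in edgeR's test, at 0% and 0.00502% of all genes. An unadjusted p under 0.05 was held by 1 and 2 of the set, beside 674 of 18012 and 1457 of 19926 genes. Of the other amino acid transporters, 3 of 18 rose and 5 fell at 20 µM, beside 6.52% higher and 13.2% lower over all genes. SLC38A3 was at -4.99, SLC38A4 at -2.88 and SLC1A1, a glutamate and cysteine importer, at -2.10. Of 14 tested regulators and targets of the amino acid response, 1 rose and 2 fell, close to the shares over all genes. ATF4 rose by 1.11 on the log2 scale, DDIT3 fell by 1.16 and EIF2AK3 also fell.

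**Figure D3:**
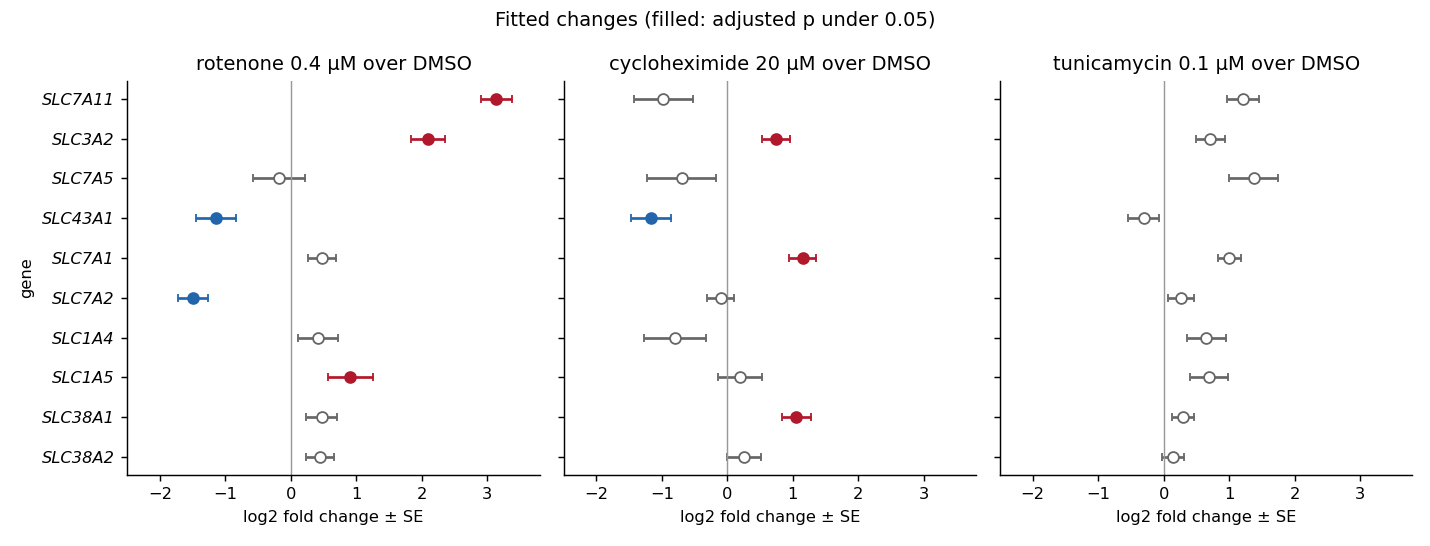
Fitted log2 fold change over DMSO (horizontal axes, ± SE, edgeR) of the 10 transporter genes at 0.4 µM rotenone, 20 µM cycloheximide and 0.1 µM tunicamycin, with 2 treated and 4 DMSO cultures each. Filled points passed an adjusted p of 0.05, red higher and blue lower. SLC3A2 is filled in the rotenone and cycloheximide panels, SLC7A11 only with rotenone, and no point is filled for tunicamycin.

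Tunicamycin at 0.1 µM, which loads the endoplasmic reticulum with unglycosylated protein, called none of the 10 genes in edgeR's test. Only 0.00538% of 18577 genes rose and 0% fell. Of the set, 5 had an unadjusted p under 0.05, all of them higher, beside 676 of all 18577 genes. DESeq2's test called 2 of the set, beside 19 genes higher and 8 lower among all genes. SLC7A11 had 175 and 114 CPM, against 82.4, 67.3, 53.0 and 46.1 CPM with DMSO, and SLC7A1 had 41.4 and 47.6 CPM, against 23.3, 22.8, 20.3 and 22.8 CPM. No treated culture of either gene overlapped with DMSO. The log2 fold changes were 1.21 (SE 0.24, unadjusted p = 4.0e-04, adjusted p = 0.55) and 1.00 (SE 0.18, unadjusted p = 1.6e-04, adjusted p = 0.44). With DESeq2 both passed at an adjusted p of 0.0069, and with no filter on low counts at 2.1e-06 and 0.0080.

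The values of SLC7A5, SLC3A2, SLC1A5, SLC1A4 and SLC38A1 were also above all DMSO cultures with 0.1 µM tunicamycin, without a call. The share of all genes above the DMSO range is not given here. SLC7A5 had 8.00 and 5.70 CPM from 53 and 44 UMIs, against 1.25 to 3.43 CPM with DMSO. For SLC3A2 the values were 49.2 and 85.2 CPM, against 36.9 to 45.6 CPM, and for SLC1A5 24.6 and 24.5 CPM, against 8.51 to 19.6 CPM. SLC1A4 had 6.49 and 7.12 CPM, against 3.82 to 5.60 CPM, and SLC38A1 200 and 204 CPM, against 139 to 187 CPM. SLC7A5 thus had its second highest mean of all conditions here, after brefeldin A at 0.01 µM with 7.49 CPM. At 0.001 and 0.01 µM tunicamycin no gene of the set was called, at 0% of all genes in both.

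Brefeldin A, each dose of which was 1 culture, put no gene of the set past 2-fold by the same rule. Only SLC7A11, SLC7A2, SLC38A1 and SLC38A2 reached its minimum in the treated culture or with DMSO, so the rule could not call the others. The background among all genes that reached the minimum was 0.336%, 1.87% and 0.204% for 0.001, 0.01 and 0.1 µM. SLC7A11 was at 46.5, 41.3 and 63.3 CPM along these doses, against 46.1 to 82.4 CPM with DMSO. SLC3A2 was at 44.8, 40.9 and 42.3 CPM, within the DMSO range at each dose. SLC7A5, under the 50 CPM minimum, had 7.49 CPM from 65 UMIs at 0.01 µM, against 1.25 to 3.43 CPM with DMSO, a log2 ratio of 1.60.

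tBHQ, also with 1 culture per dose, put none past 2-fold by that rule at 3, 30 or 300 µM. The rule could call only SLC7A11, SLC7A2, SLC38A1 and SLC38A2, and SLC3A2 at 3 µM, since the others did not reach the minimum. The background among all genes that reached it was 1.06%, 0.843% and 0.793%. SLC7A11 had 73.1, 40.7 and 54.0 CPM along these doses, against 46.1 to 82.4 CPM with DMSO. The log2 ratio of its summed UMIs was 0.28 (0.16 to 0.40), -0.56 (-0.85 to -0.28) and -0.15 (-0.38 to 0.06), with exact intervals of counting error, so a doubling was outside each interval. SLC3A2 had 70.6 CPM at 3 µM, above all DMSO cultures, and 46.0 and 33.2 CPM at 30 and 300 µM. SLC1A4, also under the minimum, had 1.83 CPM from 6 UMIs at 300 µM, against 3.82 to 5.60 CPM with DMSO, and its log2 ratio of summed UMIs was -1.18 (-2.64 to -0.04).

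Etoposide, troglitazone and medium called none of the 10 genes in edgeR's test. The background was 0% for all 3 doses of etoposide and for medium and 0.0780% for troglitazone. In these comparisons SLC7A1 had an unadjusted p under 0.05 at 0.25 and 25 µM etoposide (log2 fold change 0.44 and 0.47), and SLC7A2 with troglitazone (-0.41). There SLC7A2 had 149, 187, 147 and 180 CPM, below the 199 CPM of the lowest DMSO culture. Among all genes, 546 of 21184, 890 of 20160 and 453 of 17954 had such a p in these 3 comparisons.

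Ordered by mean level over the 20 conditions, SLC7A11 was highest at 0.4 µM rotenone (547 CPM), then at 0.2 µM (312 CPM) and with 0.1 µM tunicamycin (144 CPM), and none of these overlapped with its neighbour. The next, 0.25 µM etoposide (79.5 CPM) and 0.2 µM cycloheximide (79.3 CPM), overlapped with each other and with DMSO, and 20 µM cycloheximide was lowest (34.2 CPM). SLC7A1 was above the whole DMSO range in 17 of 19 conditions, the exceptions being medium and troglitazone. Its 4 DMSO cultures, shared by all these comparisons, covered only 20.3 to 23.3 CPM. Of the conditions 7 are single cultures, and the share of all genes above the range is not given here. Among the 12 comparisons with at least 2 treated cultures, SLC7A1 passed edgeR's test only at 20 µM cycloheximide. SLC7A2 was lowest at 0.4 µM rotenone (77.9 CPM), next lowest at 0.2 µM (146 CPM). The other genes lay outside the DMSO range in at most 8 of 19 conditions.

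**Figure D4:**
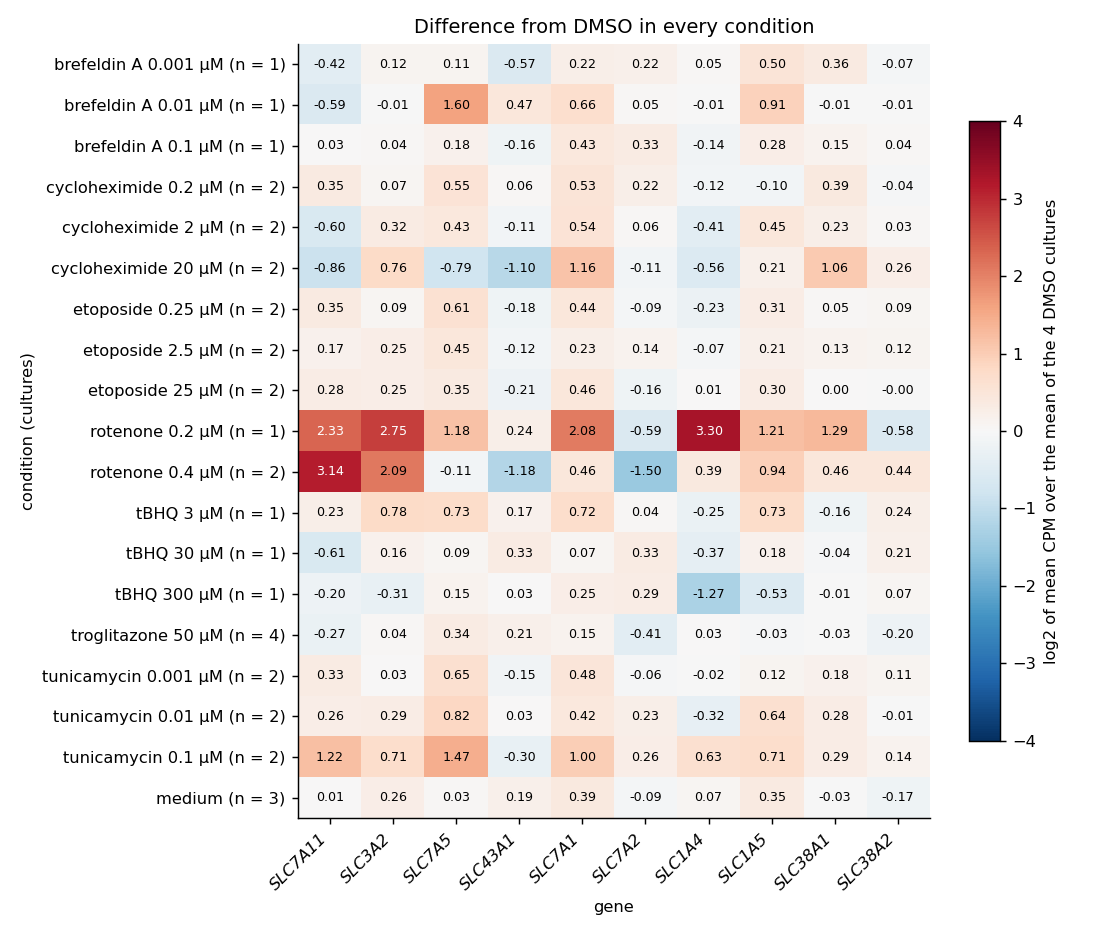
Log2 of the mean CPM in each of 19 conditions (rows, with the number of cultures) over the mean of the 4 DMSO cultures, for the 10 transporter genes (columns), red higher and blue lower. Values past 2 in either direction are at rotenone only, with 3.30 for SLC1A4 at 0.2 µM and 3.14 for SLC7A11 at 0.4 µM.

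The genes whose condition means were most like those of SLC7A11, among 10920 genes of at least 10 CPM on average, were ATF2, RPS6KA5, SUCO, TENT5A and SESN2. Pearson's r of log2(CPM + 1) over 20 conditions was 0.96, 0.95, 0.94, 0.93 and 0.93. It was 0.81 for SLC3A2, 0.44 for SLC7A1 and -0.73 for SLC7A2. These correlations are a description, since conditions share runs and the 3 rotenone and tunicamycin conditions with high SLC7A11 weigh heavily in them.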

How the data were processed

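Per the labels and methods, the authors dissociated and fixed HepaRG cells, prepared Parse Evercode libraries, and aligned reads to GRCh38. The deposited matrix holds UMI counts per gene and cell. The sources used here do not give the software version, the annotation or the use of strand. Cells were assigned to cultures by their names in the deposited metadata, kept at 500 genes or more and at most 20% mitochondrial UMIs, and summed for cultures with at least 30 kept cells. No doublet caller was run, and 0 cell barcodes were held by more than 1 cell. CPM was computed from each culture's total UMIs.

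Conditions with 2 or more cultures were compared with DMSO (4 cultures) in edgeR 4.0.16 (R 4.3.3) on genes kept by filterByExpr, scaled by total count without TMM factors, with Benjamini-Hochberg adjustment over all genes tested. The test was checked on simulated counts. Single cultures were given as ratios with exact intervals. Alternatives were TMM factors, DESeq2 (1.42.0) size factors and test, all cells, no gene filter, no mitochondrial genes, the run as a block, one fit over all conditions and leaving out each culture. The fit over all conditions for 0.2 µM rotenone was added after the data were seen. The genes and lists were chosen with earlier results of these data known. The named genes were the 10 transporters, at most 3 genes of each other list with the largest change past the test, and the 5 genes most like SLC7A11. The 8 sublibraries carry no treatment in the labels.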

Additional observations from a re-analysis of the deposited data

Results flagged for a closer look

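Between the rotenone doses, the differences at 0.4 µM minus 0.2 µM that passed the test of the difference in the fit over all conditions were, on the log2 scale, -2.90 for SLC1A4, -1.62 for SLC7A1, -1.38 for SLC43A1, -0.91 for SLC7A2, -0.82 for SLC38A1 and 1.03 for SLC38A2. They rest on 2 cultures at 0.4 µM and 1 culture at 0.2 µM.

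Among the 20 sets of 4 cultures examined (10 genes in troglitazone and in DMSO), 5 had a culture that stood apart from the other 3 by Dixon's criterion, where chance flags about 1 in 20. With troglitazone these were SLC7A11 in run 3 (82.9 CPM) and SLC43A1 in run 4 (41.2 CPM). With DMSO they were SLC7A1 in run 5 (20.3 CPM), SLC7A2 in run 4 (274 CPM) and SLC1A4 in run 6 (5.60 CPM).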

How the results depend on the processing

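Of the values recomputed under the alternatives, 1187 kept their direction and their side of the threshold or moved little, 101 moved, 32 newly passed, 23 no longer passed and 17 changed sign, and the cause was not tested. At 0.4 µM rotenone, 5 of the 10 genes were called by total count, 8 with TMM factors, DESeq2 size factors or DESeq2's test, 9 in the fit over all conditions with TMM or DESeq2 size factors, and 4 to 5 without any one culture. At 20 µM cycloheximide 4 were called, 3 to 4 without any one culture, and 0 with the run as a block (adjusted p = 0.053 for SLC7A1, 0.054 for SLC38A1, 0.14 for SLC3A2 and 0.11 for SLC43A1). The block also ended the call of SLC1A5 at 0.4 µM rotenone (1.00, adjusted p = 0.088). Among all genes at that dose, 5570 rose and 6078 fell of 19831 with TMM factors. In the fit over all conditions with TMM factors, 6701 rose and 6699 fell of 24028. At 0.1 µM tunicamycin 0 were called, and 2 with DESeq2's test, with no filter on low counts or with the run as a block. Among all genes, 19 rose and 8 fell of 18577 with DESeq2's test. With no filter 76 rose and 48 fell of 38964, and with the block 68 and 52 of 18073. Leaving out a culture gave 0 there and in the other comparisons with 0 calls, and 4 genes past 2-fold at 0.2 µM rotenone each time.

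Runs were no pairing in the sources. The deviations of troglitazone cultures from their mean correlated with those of the DMSO culture of the same run at 0.47, 0.58, 0.01 and 0.55 (runs 3 to 6), and those of medium at 0.50, -0.23 and 0.26 (runs 3, 5 and 6). Of these 7 cultures, 2 did not correlate best with their own run.

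SLC7A5 at 0.4 µM rotenone was at -0.18, and at 0.27 with TMM factors, 0.33 with DESeq2 size factors, 0.34 in DESeq2's test, 0.090 with the run as a block, 0.35 and 0.32 in the fit over all conditions with TMM and DESeq2 size factors, and between -0.36 and 0.0044 without any one culture. SLC7A2 at 20 µM cycloheximide was at -0.10, and at 0.0040 with TMM factors, 0.0092 with DESeq2 size factors, 0.010 in DESeq2's test, 0.015 and 0.021 in the fit over all conditions with these factors, and between -0.29 and 0.058 without any one culture. SLC38A2 at 20 µM cycloheximide was at 0.25, and between -0.35 and 0.69 without any one culture. SLC1A5 at 0.4 against 0.2 µM rotenone was at -0.28, and at 0.027 and 0.17 with TMM and DESeq2 size factors.

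The share of cells with a UMI rises with depth by construction. For SLC7A11 it was 83.9% at 10000 UMIs per cell and 98.0% unthinned at 0.2 µM rotenone, 70.0% and 90.1% at 0.4 µM (53.0% with all cells at 5000 UMIs), and 31.8% and 58.4% with DMSO. For SLC1A4 it was 33.6% and 86.6% at 0.2 µM (13.7% with all cells), 5.00% and 41.3% at 0.4 µM, and 3.30% and 19.0% with DMSO. The 0.2 µM rotenone dose rests on 1 culture, SLC7A5 and SLC1A4 on few UMIs in DMSO cultures, and the precision of all comparisons on 2 to 4 cultures per condition.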

Other observations

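Cells above 20% mitochondrial UMIs, which entered only the alternatives with all cells kept, held the same transporters at measurable levels. SLC7A11 had 189 CPM in 304 such cells at 0.2 µM rotenone and 233 and 304 CPM in 80 and 121 such cells at 0.4 µM, against 64.0 and 34.5 CPM in 62 and 82 such cells of the DMSO cultures of runs 3 and 5. In the same cells SLC1A4 had 29.6 CPM at 0.2 µM and 3.71 and 5.02 CPM at 0.4 µM, against 4.51 and 3.50 CPM with DMSO. These values were not tested.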
